A study of Mus musculus with 4 samples.

Results

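The respiratory chain was followed here through 82 nuclear genes, out of 20523 genes measured, in sorted hematopoietic progenitors that had lost Ddb1 and in their controls. A gene was taken as a member when its symbol began with Ndufa, Ndufb, Ndufc, Ndufs or Ndufv and a number, was Sdha, Sdhb, Sdhc or Sdhd, or began with Uqcr, with Cox and a digit from 4 to 8, or with Atp5. Only probe sets assigned to a single gene were kept, 159 for the members, and a gene with several was read from the brightest of them, averaged over the 4 arrays. This gave 37 genes of complex I, 4 of complex II, 7 of complex III, 17 of complex IV and 17 of complex V. Of the 82, 3 carry a matching symbol but encode no subunit under their present names, Cox4nb (Emc8), Atp5s (Dmac2l) and Atp5sl (Dmac2), which leaves 79 subunit genes.

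The study asked how hematopoietic stem and progenitor cells depend on DDB1, the adaptor of the CUL4 ubiquitin ligase. The groups were Ddb1-deficient cells (DDB1 flox/flox, VavCre+) and control cells (DDB1 flox/flox, VavCre-), so both carried the floxed alleles and the control lacked Cre. All were Lin-ckit+Sca1+ (LSK) cells, a fraction enriched for stem cells, sorted from the fetal liver of C57BL/6x129 embryos at E16.5, with 2 arrays per group. The Vav promoter expresses Cre throughout blood cells and not in stem cells alone. Whether an LSK sample came from 1 embryo or a pool was not given in the sources used here. The p-values below measure the spread between these samples, and how many embryos that spread covers is not known. Xist read 2.15 and 9.96 on the Ddb1-deficient arrays and 1.93 and 10.09 on the control arrays. The 2 arrays of a group were thus not repeats of 1 RNA sample.

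The respiratory chain sits in the inner mitochondrial membrane. Complex I takes electrons from NADH and complex II takes them from succinate, both pass them through ubiquinone to complex III, and cytochrome c carries them on to complex IV, where oxygen is reduced. Complexes I, III and IV pump protons, and complex V, the ATP synthase, uses the gradient to make ATP. Complex II is the only one of these enzymes built without a mitochondrially encoded subunit. Adult stem cells of the blood are known for keeping respiration low, while their differentiation needs it.

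Values below are log2 RMA intensities, a brightness that orders arrays within a probe set but not genes against each other. Ddb1 itself read 4.58 and 4.33 on the Ddb1-deficient arrays, against 6.06 and 6.26 on the control arrays, a difference of -1.70 (SE 0.20). Of the LSK markers, Kit read 6.41 and 5.63 against 6.18 and 6.40, and Ly6a, which encodes Sca1, read 7.01 and 6.84 against 7.30 and 6.32, so both groups carried these sort markers and the arrays overlapped. Of the 10 LSK genes listed, 2 lay higher and 2 lower on both Ddb1-deficient arrays: Mecom read 8.50 and 8.35 against 5.62 and 4.94, and Gata2 differed by 0.51, while Flt3 read 2.0 and 1.49 against 6.01 and 5.85, and Cd48 differed by -0.87. Markers of other cells differed: 17 of 17 macrophage genes lay higher on both Ddb1-deficient arrays than on both control arrays, as did 9 of 11 erythroid and 7 of 10 endothelial genes, while 10 of 11 granulocyte and mast cell genes lay lower; over all genes 22.6% lay higher in this way and 18.5% lower. Of 12 hepatoblast genes, 6 lay higher and 2 lower, among them Trf at 2.89, Alb at 1.36 and Hnf4a at -2.64. The arrays numbered 1 in both groups read high for the Y-linked Kdm5d and those numbered 2 for Xist, so each group held 1 array of either pattern.

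Ndufc2, Ndufv1, Ndufa6 and Ndufb10 had the smallest p-values of the members in limma. Their adjusted p-values ran from 0.250 to 0.294, so none passed 0.05. All are subunits of complex I, which holds 37 of the 82 members. Ndufb10 was higher in Ddb1-deficient cells and the other 3 were lower. Respiratory chain genes are known to share transcription regulators, so the bases before the transcription starts of these genes are shown, taken from RefSeq (GRCm38.p6) and read 5′ to 3′ on the strand of the gene, each ending at the base before the start. Capitals mark exact matches, on either strand, to GCGCATGC, the core of the site of nuclear respiratory factor 1 (Nrf1), GGAAG, the core of sites of ETS factors such as GABP, and CCAAT. The positions are chr7:97399753-97400002 (plus strand) for Ndufc2, chr19:4012756-4013005 (minus) for Ndufv1, chr15:82354292-82354541 (minus) for Ndufa6 and chr17:24724424-24724673 (minus) for Ndufb10.
Ndufc2: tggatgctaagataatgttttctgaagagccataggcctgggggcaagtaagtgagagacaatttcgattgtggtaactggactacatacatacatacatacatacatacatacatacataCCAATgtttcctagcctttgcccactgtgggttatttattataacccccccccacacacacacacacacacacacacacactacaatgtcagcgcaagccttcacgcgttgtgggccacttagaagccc
Ndufv1: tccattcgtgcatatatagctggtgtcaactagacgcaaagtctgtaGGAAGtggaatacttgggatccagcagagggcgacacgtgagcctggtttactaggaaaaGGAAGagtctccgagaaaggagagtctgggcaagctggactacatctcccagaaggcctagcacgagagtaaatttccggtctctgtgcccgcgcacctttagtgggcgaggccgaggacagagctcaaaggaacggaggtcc
Ndufa6: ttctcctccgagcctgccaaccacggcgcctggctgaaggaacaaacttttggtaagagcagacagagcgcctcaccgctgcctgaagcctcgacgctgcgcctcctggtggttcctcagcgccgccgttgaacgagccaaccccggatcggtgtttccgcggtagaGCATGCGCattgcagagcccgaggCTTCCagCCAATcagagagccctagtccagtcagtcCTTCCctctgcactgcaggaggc
Ndufb10: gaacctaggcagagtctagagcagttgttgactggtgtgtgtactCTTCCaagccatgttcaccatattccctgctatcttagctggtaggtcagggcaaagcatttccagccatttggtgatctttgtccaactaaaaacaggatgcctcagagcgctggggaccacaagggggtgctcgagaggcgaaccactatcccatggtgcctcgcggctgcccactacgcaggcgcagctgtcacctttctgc

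Ndufa6 carried all 3 motifs, the other 3 genes carried no Nrf1 core in this stretch, and Ndufb10 carried only 1 ETS core. Promoter windows (250 bases before to 50 after each start) were found for 66 of the 82 members, in 72 windows. The Nrf1 core stood in 13.9% of the member windows, against 2.71% of all 32851 windows, and belonged to 10 members. The bases G and C made up a median of 58.0% of the member windows, against 52.7% of all windows. The part of base composition in the share of this core was not tested. GGAAG stood in 69.4% of the member windows, against 71.4% of all windows, and CCAAT in 41.7%, against 37.4%. The 10 members with the Nrf1 core had a median difference between the groups of -0.12, and the 56 without it -0.09, medians that lie close together. The 29 members with CCAAT had a median of -0.24 and the 37 without it -0.03, given as a description with no test. A match is a run of letters and not a bound site.

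No member passed an adjusted p of 0.05 in limma, with p-values adjusted over all 20523 genes by the method of Benjamini and Hochberg. The smallest adjusted p among the members was 0.250, for Ndufc2, and the smallest over all genes was 0.132, so 0% of all genes passed. At an unadjusted p under 0.05, 1 member was higher, against 4.90% of all genes, and 6 were lower, against 6.05%. The methods' t-test gave 2 members higher and 5 lower at that level, against 4.46% and 3.74% of all genes, and after adjustment 2 genes (0.00975%) and 0 members. An exact permutation test of 2 arrays against 2 cannot go below p = 0.333, so no single member could pass one.

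The ranges of the arrays can still be compared. Both Ddb1-deficient arrays lay below both control arrays for 27 of the 82 members (32.9%), against 18.5% of all genes, and above both for 8 (9.76%), against 22.6%. The median difference was -0.15 over the members and 0.03 over all genes. Most differences were small: 63 of the 82 were under 0.5 in size, and 57 were smaller than the wider of the gaps between the 2 arrays of a group. The gap between arrays had a median of 0.38 in Ddb1-deficient cells and 0.23 in control cells over the members. In bulk samples such as these, fewer cells of a type and less RNA per cell cannot be told apart.

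**Figure D1:**
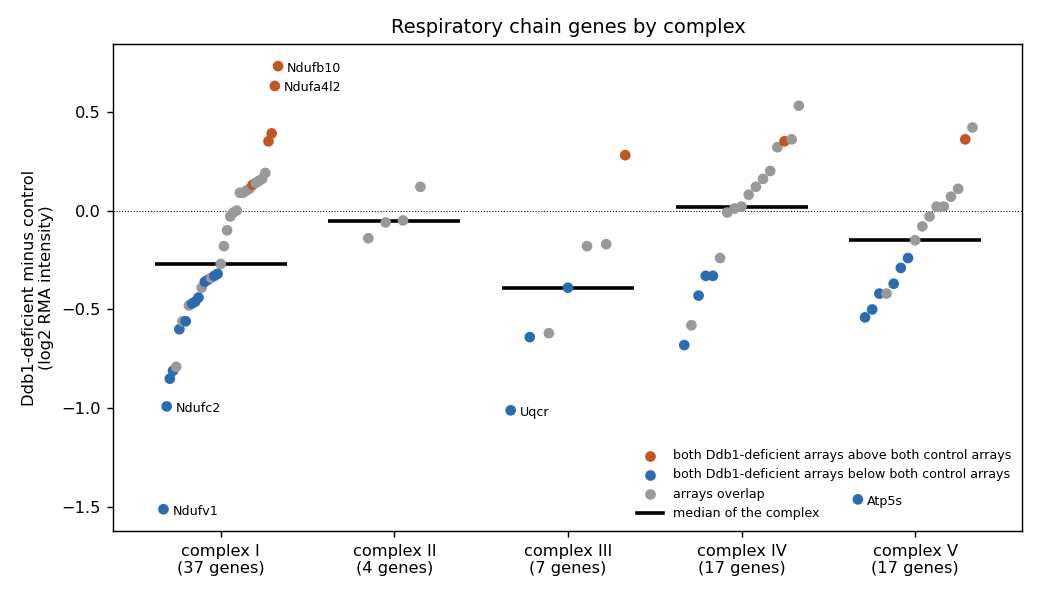
Difference between the group means (Ddb1-deficient minus control, log2 RMA intensity, 2 arrays per group) for each of the 82 members, sorted within complexes I to V, with a black line at each complex's median and colors for members whose arrays did not overlap. Complex I, with the most genes, holds the widest range, -1.51 for Ndufv1 to 0.73 for Ndufb10. The 4 genes of complex II lie between -0.14 and 0.12.

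The brightness of a probe set moved with this tilt. Of the 82 members, 41 had a mean log2 of at least 8, a level reached by 1179 of all genes. Among these bright members, 17 (41.5%) lay lower on both Ddb1-deficient arrays and 3 (7.32%) higher, against 40.6% and 17.5% of all bright genes. The median difference was -0.24 over the bright members and -0.17 over all bright genes. The share of lower members was thus near that of other genes as bright as they are, while the share of higher members was below it. Among the 35 members above the median probe set (log2 2.08) and under 8, 10 (28.6%) were lower and 4 (11.4%) higher, against 23.9% and 20.1% of the 10541 genes in that range. Taken over the bright genes alone, limma called 3.22% of them at an adjusted p of 0.05 (30 higher, 8 lower) and 0 of the 41 members. The smallest adjusted p of the members was then 0.0760, for Ndufv1, followed by 0.0764 for Ndufc2, and 3 members were lower (14.2% of the bright genes) and 0 higher (7.89%) at an unadjusted p under 0.05.

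**Figure D2:**
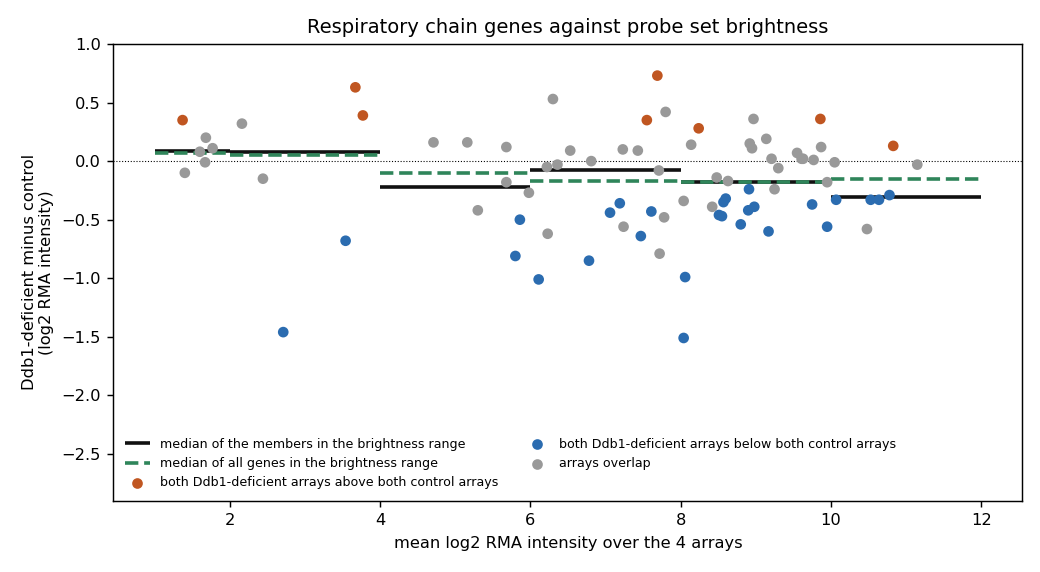
Difference (Ddb1-deficient minus control, log2 RMA intensity) of each of the 82 members against its mean log2 RMA intensity over the 4 arrays; solid lines give the median of the members and dashed lines the median of all genes in each brightness range. Between 8 and 10 both medians are -0.18, and from 10 upward they are -0.31 over 8 members and -0.15 over 246 genes.

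Other measures of the arrays differed as well. The bacterial hybridization control bioB read 10.95 and 11.17 on the Ddb1-deficient arrays and 10.43 and 10.46 on the control arrays, and bioC also differed by 0.57, while cre differed by -0.01. The log2 excess of the 3′ over the 5′ probe set of Actb, which grows as RNA or cDNA is shortened, was 0.26 and 0.51 against 0.24 and 0.24. For Gapdh it was 3.55 and 3.61 against 3.62 and 4.0. The macrophage genes had medians of 8.97 and 9.19 on the Ddb1-deficient arrays and 5.56 and 6.32 on the control arrays, and the granulocyte and mast cell genes 3.54 and 3.70 against 7.37 and 6.28. The part of these differences in the values of the respiratory chain was not tested.

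Complex I, the NADH dehydrogenase, had a median difference of -0.27 over its 37 genes, with 13 (35.1%) lower and 5 (13.5%) higher on both arrays. All genes stood at 18.5% and 22.6%, and all bright genes at 40.6% and 17.5%; the 18 bright genes of complex I had 9 lower and 1 higher. These shares are the measure for the counts of every complex and class below. Its 7 nuclear core subunits, which hold the flavin and the iron-sulfur clusters and form the path to ubiquinone, had a median of -0.36, with 3 lower and 0 higher. The 30 genes outside the core, mostly accessory subunits that surround and stabilize it, had a median of -0.14, with 10 lower and 5 higher. By their symbols they include Ndufa4 (-0.18, with overlap) and Ndufa4l2 (0.63, among the higher), which are taken up below. By symbol, the 14 Ndufa genes had a median of 0.09, the 10 Ndufb genes -0.21, the 2 Ndufc genes -0.79, the 8 Ndufs genes -0.36 and the 3 Ndufv genes -0.39. The Ndufc median rests on Ndufc1 at -0.60 and Ndufc2 at -0.99, and a second probe set of Ndufc1 gave 0.65 with overlapping arrays. All 8 Ndufs genes had negative differences, between -0.79 and -0.03. For the core genes among them other settings were run, and signs turned for Ndufs3, to 0.08 after a further quantile normalization and up to 0.20 on leaving out 1 array, and for Ndufs8, to 0.78 without cross-hybridizing probe sets.

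Among the core subunits, Ndufv1, the flavoprotein where NADH is oxidized, read 7.58 and 7.0 on the Ddb1-deficient arrays, against 8.53 and 9.07 on the control arrays. The groups did not overlap, and the difference of -1.51 (SE 0.33, limma adjusted p = 0.284) was the largest of the 82 members. On a linear scale this difference corresponds to 35% of the control value, in a probe set of a type that can cross-hybridize. The other 2 probe sets of Ndufv1 also lay lower on both Ddb1-deficient arrays, with differences of -1.14 and -0.28. Sizes thus differed between probe sets of the gene while the direction did not. Its partner Ndufv2, an iron-sulfur subunit of the same module, read 9.07 and 8.92 against 9.0 and 8.70, with overlapping arrays and a difference of 0.15.

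Other core subunits lie further along the electron path. Ndufs7, which lies by the ubiquinone site, read 6.80 and 6.88 on the Ddb1-deficient arrays, against 7.37 and 7.18 on the control arrays (difference -0.44, SE 0.18), with no overlap. A second probe set of Ndufs7 gave 0.02. Ndufs8, which carries iron-sulfur clusters on the way to ubiquinone, read 7.40 and 6.52 against 7.72 and 7.31, and its 6 probe sets ran in both directions, between -0.63 and 0.78. Ndufs1, the largest core subunit, read 6.04 and 5.64 against 5.85 and 6.36 (difference -0.27), and Ndufs3 read 6.57 and 6.11 against 6.24 and 6.50 (difference -0.03). Neither of these last genes had arrays that stood apart.

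Among the accessory subunits, Ndufc2, of the membrane arm, read 7.65 and 7.49 on the Ddb1-deficient arrays, against 8.45 and 8.66 on the control arrays. The difference was -0.99 (SE 0.19, limma adjusted p = 0.250), with no overlap. Of 2 further probe sets that are shared with another gene, 1 gave -0.81 with no overlap, and the other gave 0.12 with overlapping arrays, so the result rests on the probe set chosen. Ndufa6, a subunit of the peripheral arm, read 6.28 and 6.43 against 7.08 and 7.33, a difference of -0.85 (SE 0.20, limma adjusted p = 0.294). Ndufb5, of the membrane arm, read 5.46 and 5.33 against 6.33 and 6.08 (difference -0.81, SE 0.20), and a shared probe set gave -0.59 with no overlap. Ndufb11, an X-linked subunit of the same arm, read 9.58 and 9.75 against 10.19 and 10.27, and all 3 of its probe sets lay lower on both Ddb1-deficient arrays, with differences of -0.56, -1.12 and -0.61. In these 4 genes the lowest control array stood above the highest Ddb1-deficient array in the probe set used.

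Ndufb10, also of the membrane arm, lay on the other side. It read 8.04 and 8.06 on the Ddb1-deficient arrays, against 7.31 and 7.34 on the control arrays, a difference of 0.73 (SE 0.17, limma adjusted p = 0.294), and the arrays of each group lay within 0.03 of each other. It was the only member higher at an unadjusted p under 0.05. Its neighbor in the same arm, Ndufb8, read 7.59 and 7.85 against 7.38 and 7.37 (difference 0.35). Ndufa11 read 4.23 and 3.70 against 3.47 and 3.67, with ranges that barely separated. Membrane-arm genes of 1 family thus lay on both sides: of the 10 Ndufb genes, 5 were lower and 3 higher on both arrays. Ndufb7, the third of the higher genes, differed by 0.13, and its second probe set gave -0.39 with overlapping arrays.

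**Figure D3:**
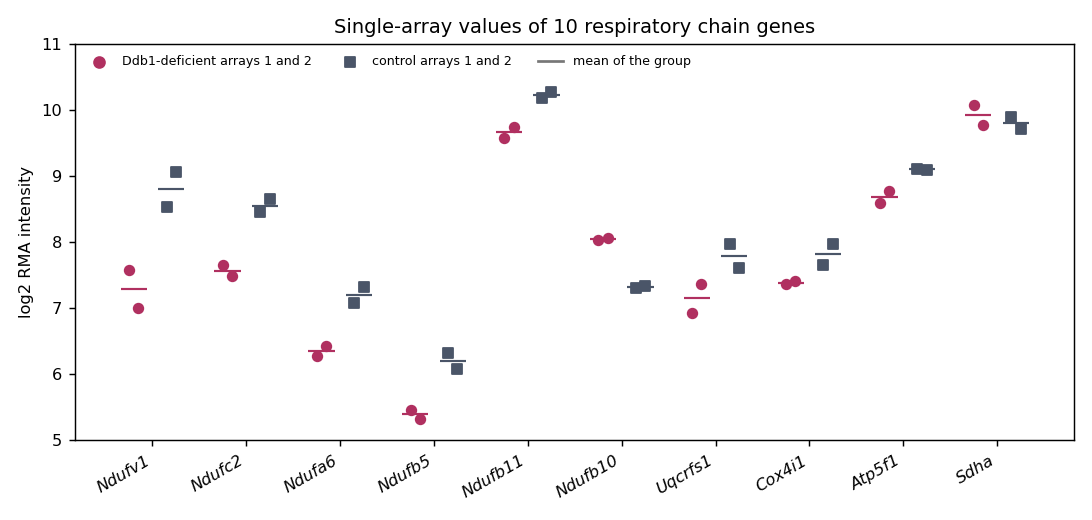
Log2 RMA intensity on each array for 10 members, Ddb1-deficient arrays (circles) left of control arrays (squares), with a line at each group's mean. Ndufv1, Ndufc2, Ndufa6, Ndufb5 and Ndufb11 lie lower and Ndufb10 higher in Ddb1-deficient cells without overlap, Uqcrfs1, Cox4i1 and Atp5f1 lie lower by 0.42 to 0.64, and Sdha overlaps; none passed the adjusted test.

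Ndufa4 and its paralog Ndufa4l2 carry complex I symbols, although the Ndufa4 protein is bound to complex IV. Ndufa4 read 9.89 and 9.83 against 10.19 and 9.88, with overlapping values and a difference of -0.18. Ndufa4l2, the form induced by hypoxia, read 4.56 and 3.42 against 3.39 and 3.33. Its difference of 0.63 (SE 0.44) came mainly from the first Ddb1-deficient array, and the second lay 0.03 above the higher control array.

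Complex II, the succinate dehydrogenase that is also an enzyme of the tricarboxylic acid cycle, showed the narrowest range, over the fewest genes. Of its 4 genes, 0 lay lower or higher on both arrays. Sdha, the flavoprotein, read 10.08 and 9.78 on the Ddb1-deficient arrays, against 9.90 and 9.71 on the control arrays (difference 0.12, SE 0.21). Sdhb, the iron-sulfur subunit, read 6.26 and 6.12 against 6.07 and 6.42 (difference -0.05, SE 0.22). Sdhc and Sdhd anchor the enzyme in the membrane. Sdhc read 8.78 and 8.04 against 8.45 and 8.66 (difference -0.14, SE 0.32). Sdhd read 9.30 and 9.24 against 9.60 and 9.06 (difference -0.06, SE 0.26), and a second probe set of Sdhd gave 0.44 with both Ddb1-deficient arrays higher. The differences of these 4 genes were all within their standard errors in the probe sets used.

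Complex III, the cytochrome bc1 complex, had the lowest median of the 5 complexes, -0.39 over 7 genes, with 3 (42.9%) lower and 1 (14.3%) higher on both arrays. Among genes of mean log2 8 or more it was not the lowest. Its median there was -0.17 over 3 genes, the same as over all bright genes. Complex I then had -0.34, complex II -0.06, complex IV -0.24 and complex V -0.14. Uqcrfs1, the Rieske iron-sulfur protein, which in mice is required for fetal stem cells to differentiate, read 6.93 and 7.37 on the Ddb1-deficient arrays, against 7.98 and 7.61 on the control arrays (difference -0.64, SE 0.26). Uqcrh, the hinge protein, read 8.99 and 8.58 against 9.0 and 9.36 (difference -0.39), where the closest arrays of the groups differed by 0.01. Uqcr, the small subunit now named Uqcr11, read 4.90 and 6.31 against 6.68 and 6.56, so its difference of -1.01 (SE 0.53) came mostly from 1 array. Uqcrb, which lies by the ubiquinone site, read 8.14 and 8.61 against 8.08 and 8.11 (difference 0.28). Both core proteins, Uqcrc1 and Uqcrc2, had overlapping arrays, with differences of -0.18 and -0.17. Within complex III the 2 Ddb1-deficient arrays lay further apart, by a median of 0.70, than the control arrays, by 0.17.

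Complex IV, the cytochrome c oxidase, had a median difference of 0.02 over 17 genes, with 4 (23.5%) lower on both arrays and 1 (5.88%) higher, the dim Cox7b2. The 17 include Cox4nb, which is no subunit, and tissue forms near the floor. Its 7 genes of mean log2 8 or more had a median of -0.24, with 2 lower and 0 higher, beside -0.17 over all bright genes. Several of its subunits come in paired forms, 1 widely expressed and 1 found in muscle, testis or lung. Of the widely expressed forms, Cox4i1 read 7.37 and 7.41 on the Ddb1-deficient arrays, against 7.66 and 7.98 on the control arrays (difference -0.43, SE 0.20). Cox6a1 read 9.44 and 8.87 against 8.55 and 9.03 (difference 0.36), Cox6b1 8.75 and 9.51 against 9.42 and 9.32 (difference -0.24), Cox7a2 9.58 and 9.70 against 9.42 and 9.81 (difference 0.02) and Cox8a 6.12 and 5.36 against 5.39 and 5.85 (difference 0.12). Only Cox4i1 among these 5 had arrays that stood apart.

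Of the tissue forms, Cox4i2, Cox7a1, Cox8b and Cox7b2 read under the median probe set on every array, between 1.15 and 1.99, and differences at that level are not read further. Cox8c read 2.58 and 2.07 against 2.07 and 1.95, close to that floor. Cox6a2, the heart and muscle form of subunit 6a, read 3.45 and 2.94 against 3.66 and 4.10 (difference -0.68, SE 0.29). Cox6b2, the testis form, read 4.63 and 5.85 against 5.61 and 4.54 (difference 0.16), the widest spread within both groups among the forms. Cox7b, the widely expressed partner of Cox7b2, had no single-gene probe set.

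Cox7a2l, which joins complexes III and IV into supercomplexes, read 10.53 and 10.41 on the Ddb1-deficient arrays, against 10.73 and 10.88 on the control arrays. Its difference of -0.33 (SE 0.18) was repeated by its other 2 probe sets, at -0.40 and -0.67, each with no overlap. Cox6c read 10.45 and 10.28 against 10.87 and 10.52 (difference -0.33), but its other probe set gave -0.02 with overlapping arrays. Cox5b, of 6 probe sets, had differences between -0.58 and -0.32 in its 4 bright ones, of which 2 had arrays that did not overlap. The subunit Cox7c was measured only by probe sets shared with another gene, of which the bright one read 9.36 and 8.90 against 9.43 and 9.64 (difference -0.40).

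Complex V, the ATP synthase, had a median difference of -0.15 over 17 genes, with 7 (41.2%) lower and 1 (5.88%) higher on both arrays; without Atp5s and Atp5sl the median was -0.08 over 15 subunit genes. In the catalytic head, Atp5a1 and Atp5b, the alpha and beta subunits, had overlapping arrays and differences of -0.03 and 0.07. Of the central stalk, Atp5c1, the gamma subunit, read 9.25 and 9.89 against 9.91 and 9.97 (difference -0.37), Atp5d 7.38 and 8.64 against 7.21 and 7.98 (difference 0.42) and Atp5e, the epsilon subunit, 8.51 and 8.55 against 8.79 and 9.34 (difference -0.54, SE 0.26). The gamma and epsilon genes were lower on both Ddb1-deficient arrays, and the delta gene overlapped.

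In the peripheral stalk, Atp5f1, the b subunit now named Atp5pb, read 8.60 and 8.77 on the Ddb1-deficient arrays, against 9.11 and 9.10 on the control arrays (difference -0.42, SE 0.18), and its second probe set gave -0.26 with no overlap. Atp5h, the d subunit, differed by -0.29 with no overlap, and Atp5o and Atp5j by -0.08 and 0.02 with overlap. In the membrane part, Atp5l, the g subunit, read 5.86 and 5.36 against 6.07 and 6.15 (difference -0.50, SE 0.25). Atp5j2, the f subunit, read 10.18 and 9.91 against 9.79 and 9.57 (difference 0.36, SE 0.21) and was the only gene of complex V higher on both arrays. That call rests on a probe set that can cross-hybridize: of its other 2 probe sets, 1 gave 0 with overlapping arrays, at 6.76 and 7.04 against 7.13 and 6.66, and the other 0.76.

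The c ring is encoded by 3 genes for the same mature protein. Atp5g3 read 8.69 and 8.89 against 9.11 and 8.95 (difference -0.24, SE 0.19), with no overlap. Atp5g2 read 5.61 and 4.57 against 5.56 and 5.46 (difference -0.42, SE 0.41), with overlap. Atp5g1 was under the median probe set on its own probe set, and a shared one gave -0.40 with overlap. Atp5s, a matching symbol outside the enzyme, read 1.92 and 2.03 against 4.13 and 2.76, at the dim end of the array, so its difference of -1.46 rests on low values. It was 1 of the 6 members lower at an unadjusted p under 0.05.

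Across probe sets, 38 members had at least 2 of their own above the median probe set, and in 21 of these all pointed 1 way. Of 15 such members whose arrays did not overlap in the probe set used, 10 had the same direction in every one. Among these 10, arrays of some overlapped in a further probe set, as for Cox6c and Uqcrh. Over the 134 member probe sets above the median, where a gene can count more than once, 45 were lower and 15 higher on both Ddb1-deficient arrays. Read from 1 probe set each, 27 of the 76 members above the median (35.5%) were lower and 7 (9.21%) higher. All genes above it, also read from 1 probe set each, stood at 25.6% and 19.8%. Between the arrays numbered 1 the median difference of the members was -0.16, and between those numbered 2 it was -0.24.

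Other lists of the pathway were read in the same way. Chain components outside the symbol patterns, such as cytochrome c1 and cytochrome c, were measured for 7 of 12, with a median of -0.23, 2 lower and 0 higher, beside 18.5% and 22.6% of all genes. Atp5mpl, a small subunit of the ATP synthase, read 7.50 and 7.46 on the Ddb1-deficient arrays, against 8.17 and 8.22 on the control arrays (difference -0.71, SE 0.17). Assembly factors, which build the complexes without staying in them, had a median of -0.37 over 49 of 53 listed, with 18 (36.7%) lower and 3 (6.12%) higher. The list had a median level of 4.73, and of all genes with a mean log2 of 4 to 6, 25.7% were lower and 19.5% higher. At an unadjusted p under 0.05, 6 factors were lower and 0 higher, beside 6.05% and 4.90% of all genes. Sdhaf3, a factor for complex II, read 1.98 and 2.72 against 4.52 and 4.34 (difference -2.08, SE 0.32, limma adjusted p = 0.198), and Sco1, a copper chaperone of complex IV, 2.80 and 3.85 against 5.06 and 4.22 (difference -1.31).

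Genes of mitochondrial biogenesis and mitochondrial DNA expression had a median of -0.42 over 20, with 10 lower and 2 higher, also at a median level within that range (4.82). Polrmt, the mitochondrial RNA polymerase, read 1.52 and 0.96 against 3.91 and 3.51 (difference -2.47, SE 0.30, limma adjusted p = 0.160), so its Ddb1-deficient values lay under the median probe set. Mterf1a read 1.43 and 2.27 against 3.88 and 3.86 (difference -2.02). The 77 mitochondrial ribosomal protein genes had a median of -0.18, with 24 (31.2%) lower and 9 (11.7%) higher. Their median level was 5.96, where the ranges 4 to 6 and 6 to 8 held 25.7% and 32.5% of all genes lower, so the share of lower genes was near that of other genes of their brightness. Mrpl9 differed by -1.72 (SE 0.23, limma adjusted p = 0.174). The values of brightness and of cell markers given above stand beside these lists as well.

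Further lists had medians near 0. The 17 measured genes of the tricarboxylic acid cycle had a median of 0.01, with 4 lower and 2 higher. Idh2, the mitochondrial isocitrate dehydrogenase that uses NADP, read 8.79 and 8.84 against 7.98 and 7.85 (difference 0.90, SE 0.18, limma adjusted p = 0.248), while Suclg2 read 5.41 and 6.94 against 7.16 and 7.03 (difference -0.92). The 15 carriers and import genes had a median of -0.03, with 4 lower and 4 higher, among them Tomm20 at -0.66 and Phb at 0.76. No gene of these lists passed the adjusted test in limma.

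**Figure D4:**
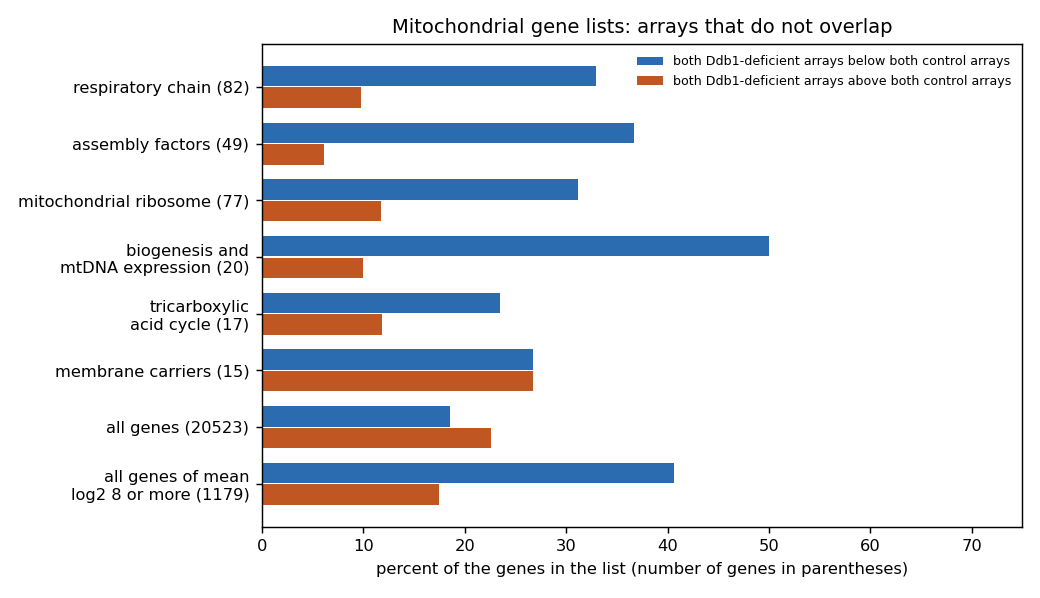
Share of the genes in each mitochondrial list, in percent, whose Ddb1-deficient arrays both lay below (blue) or both above (orange) the 2 control arrays, with all genes and all bright genes at the bottom. The respiratory chain stands at 32.9% lower and 9.76% higher, all genes at 18.5% and 22.6%, and all genes of mean log2 8 or more at 40.6% and 17.5%.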

How the data were processed

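Total RNA (20 ng) of sorted LSK cells was amplified in 2 cycles and hybridized to Affymetrix oligonucleotide arrays. The authors normalized the 4 arrays by RMA, and the deposited values are intensities on a linear scale. The deposited log2 columns hold the same values relative to the control mean and served as an alternative. The authors' fold changes and p-values, and 8 repeated per-sample columns, were not used; arrays carry no read depth, and their number limits the precision.

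Here log2 of the intensity was taken. After 64 control probe sets were left out, 37463 of 45037 probe sets named a single gene and 34640 matched RefSeq, giving 20523 genes with the brightest probe set each. Groups were compared with limma 3.58.1 in R 4.3.3 (lmFit, eBayes), adjusted by Benjamini-Hochberg. The code was also run on simulated data with spreads shuffled over genes, which does not test the fit on these arrays. Members and lists were chosen with earlier results of these data known. Genes were named by rule: per complex up to 4 higher and 4 lower of the largest differences with arrays apart, the core of complex I, all of complex II, isoforms, and up to 2 of each other list; others in the text were chosen after their values were seen. A gene that the rule names is not reported here. Alternatives covered the test, pairing, normalization, brightness, probe sets and each array left out.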

Additional observations from a re-analysis of the deposited data

How the results depend on the processing

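No member passed an adjusted p of 0.05 under any of the settings tried. With the 2 arrays per group treated as pairs by number (replicate block) 0 members passed, and 1 was higher and 4 lower at an unadjusted p under 0.05; deviations of same-numbered arrays had r = -0.0154, and beyond the number they shared the Xist and Kdm5d pattern, with no shared animal or day in the labels. Over all genes, 0 passed in limma, 2 in the methods' t-test and 38 among genes of mean log2 8 or more. Members higher at an unadjusted p numbered 1, against 2 with trend and robust moderation, 2 in the t-test, 2 with probe sets averaged, and 0 among genes above the median probe set or of log2 8 or more, where 3 were lower. With arrays centred on their medians 5 members were higher on both arrays, and among genes of log2 8 or more 3 were higher and 17 lower. The cause of each shift was not tested, apart from the smaller number of genes under the brightness limits.

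The median of all members was -0.24 at log2 8 or more. That of complex I was -0.16 with probe sets averaged. That of complex II was 0.06 after a further quantile normalization, 0.08 with probe sets averaged and 0.10 without cross-hybridizing probe sets. That of complex III was -0.28 after quantile normalization and -0.17 at log2 8 or more, where complex IV had -0.24. Complex V had -0.19 with centred arrays, -0.20 above the median probe set, -0.06 with probe sets averaged, -0.08 without cross-hybridizing probe sets, and, added after seeing the data, -0.29 with shared probe sets allowed and -0.08 for subunits only.

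Leaving out 1 array at a time, where the lone array is assumed to vary like the other group, gave 0 to 2 members higher and 3 to 12 lower at an unadjusted p under 0.05, 19 to 24 higher and 32 to 46 lower by non-overlap (with 1 array against 2 a weaker demand), and medians of -0.20 to -0.07 for all members, -0.26 to -0.07 for complex I, -0.11 to 0.12 for complex II, -0.52 to -0.21 for complex III, -0.13 to 0.08 for complex IV and -0.31 to -0.09 for complex V. Without Ddb1-deficient replicate 1 the count of lower members was 12, and without either control array it was 3. The median of complex I was -0.07 without Ddb1-deficient replicate 2. For the counts of higher and lower members with 1 array left out, no matching shares of all genes are given. The shares of all genes given above come from 2 arrays against 2 and do not apply here. Whether these counts differ from those of other genes was not tested, so they are not read as a trait of the members.

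Of 45 named members, 16 had the other sign under at least 1 of 17 settings, and among the 25 with arrays apart only Ndufc2 did (0.12 on a shared probe set). Centring gave -0.02 for Cox7a2. Quantile normalization gave 0.08 for Ndufs3, 0.05 for Sdhb and 0.07 for Sdhd. Averaged probe sets gave 0.19 for Sdhd and -0.13 for Cox7a2. Without cross-hybridizing probe sets Ndufs8 was 0.78, Sdhc 0.12 and Sdhd 0.44. Without them Atp5j2 was 0 with overlapping arrays, against 0.36. Shared probe sets gave -0.40 for Atp5g1. Leaving out 1 array at a time also turned signs, with ranges of -0.02 to 0.27 for Sdha, -0.23 to 0.13 for Sdhb, -0.52 to 0.23 for Sdhc, -0.33 to 0.21 for Sdhd, -0.26 to 0.20 for Ndufs3, -0.01 to 0.41 for Cox4i2, -0.62 to 0.14 for Cox6b1, -0.45 to 0.77 for Cox6b2, -0.16 to 0.31 for Cox7a1, -0.17 to 0.22 for Cox7a2, -0.26 to 0.50 for Cox8a, -0.13 to 0.11 for Cox8b, -0.09 to 0.30 for Atp5g1 and -0.94 to 0.10 for Atp5g2.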
